A study of Homo sapiens with 6 samples.

Results

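The genes described here are 47 genes that build the kinetochore and the mitotic spindle, enforce the spindle checkpoint or carry out anaphase and cytokinesis. They were chosen by name, from what their proteins are known to do, but with earlier results of these data known. The list is therefore not independent of the data. Every probe of the array annotated to the 47 genes under a current or older symbol was taken. All 47 had a probe on the array (76 probes) and all 47 passed the detection filter with at least 1 probe, among 11388 genes tested in all. Y15, a small molecule that inhibits focal adhesion kinase (FAK) at its autophosphorylation site, was given at 10 μM to 2 plates of TT cells. PF-04554878, also known as defactinib, inhibits the kinase activity of FAK and was given at 10 μM to 2 other plates. A further 2 plates of TT cells were left untreated, and each group has 2 Illumina bead arrays of 1 color. TT is an established human cell line of medullary thyroid carcinoma, the tumor of the calcitonin-producing C cells, so all 6 arrays come from cells of 1 line. The methods of the study state that the solvent was PBS for Y15 and DMSO for PF-04554878, while the labels name no vehicle for the untreated cells, so a compound and its solvent cannot be told apart.

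The kinetochore is the protein platform that assembles on centromeric chromatin and grips spindle microtubules. Its inner layer sits on nucleosomes that carry the histone variant CENPA, and its outer layer holds the microtubule-binding NDC80 complex. Kinetochores without attached microtubules produce an inhibitor of CDC20 and the anaphase-promoting complex (APC/C), which delays chromosome separation, and most genes of this machinery are transcribed in G2 and mitosis. Values below are log2 of quantile-normalized intensity, and a gene's level is that of its brightest detected probe. A gene passed where its adjusted p was below 0.05 in a limma fit over all 6 arrays and its fitted change was at least 1.2-fold.

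The arrays of treated cells held less signal than those of untreated cells. Mean intensity above background was 169 and 180 on the Y15 arrays, 252 and 242 on the PF-04554878 arrays and 421 and 353 on the untreated arrays, with 15215 to 18488 probes detected per array. The 2 arrays of each group correlated at 0.9887 to 0.9949 over the genes tested. Of 6 C-cell markers with a probe, 5 were detected on all 6 arrays (CALCA, CALCB, CHGA, RET and SCG2), and no follicular or endothelial marker passed the detection filter. Among 5 fibroblast markers LUM alone passed the filter, with a log2 level of 6.82 to 7.07 over all arrays. Of 4 immune markers, CD14 and CD68 were detected on all arrays and PTPRC and CD3E did not pass the filter. The summed intensity of CD14 and CD68 was 854 and 933 on the Y15 arrays, 660 and 698 on the PF-04554878 arrays and 357 and 400 on the untreated arrays. CD68, a lysosomal protein, was 1.89 higher under Y15 and 1.22 higher under PF-04554878 on the log2 scale. Neither the lower net signal nor the rise of CD68 was tested for a part in the results below. In RNA from whole cultures, fewer cells in mitosis and less RNA of these genes per cell cannot be told apart. The paper reports death of TT cells at a Y15 dose below the one used here, and detachment of most cells above that dose. It also reports lower viability of TT cells at PF-04554878 doses below the one used here. Those assays and the arrays had the same treatment time. A part of dying or detaching cells in the results below was not tested.

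Kinetochore and spindle genes were lower in treated than in untreated cells for both compounds. With Y15 treatment 44 of the 47 genes (93.6%) fell, where 21.5% of all genes tested did, and 0 rose, where 16.7% of all genes did. By limma, SPC24 was the 1 gene higher under Y15 at an unadjusted p below 0.05. The median log2 change under Y15 was -0.85 over the 47 genes and -0.05 over all genes tested. With PF-04554878 treatment 41 genes (87.2%) fell, where 35.1% of all genes did. The 3 genes that rose under PF-04554878 were CENPU, PRC1 and FAM83D (6.38%), where 27.3% of all genes rose. The median under PF-04554878 was -1.05 over the 47 genes and -0.07 over all genes. Falls of at least 2-fold were met by 19 genes under Y15 (1.38% of all genes) and by 24 genes under PF-04554878 (9.58% of all genes), and FAM83D was the 1 gene that rose at least 2-fold under PF-04554878 (6.96% of all genes). These counts use the brightest probe of each gene and fitted values, also for probes undetected in a group. By their bounds CENPI and CENPQ under Y15 (at least 1.05-fold and 1.16-fold lower) do not reach 1.2-fold. Nor do CENPI, CENPP and CENPQ under PF-04554878 (at least 1.04-fold, 1.07-fold and 1.14-fold lower). Both sets of changes were taken against the same 2 untreated arrays. The 47 genes were chosen with earlier results of these data known.

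**Figure D1:**
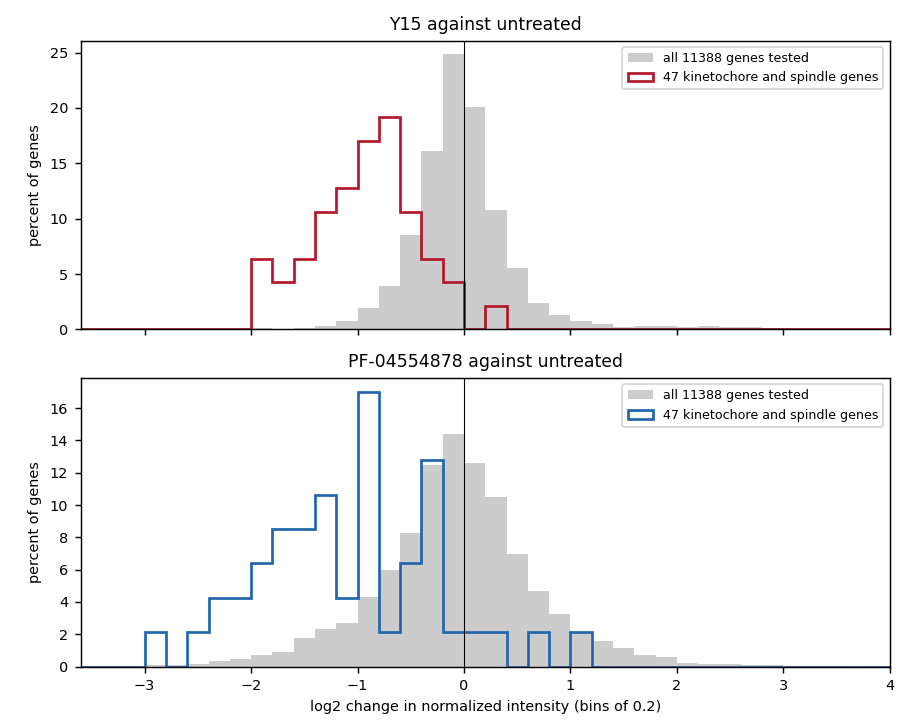
Share of genes (percent) in each bin of log2 change against untreated cells, for Y15 above and PF-04554878 below, with the 47 kinetochore and spindle genes as a colored outline and all 11388 genes tested as gray bars. The outline lies mostly below 0 in both panels, with medians of -0.85 under Y15 and -1.05 under PF-04554878 against -0.05 and -0.07 for all genes.

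The size of these falls depended on how arrays were scaled, and the distance from other genes less so. Scaling each array to its median over all probes moved the median of all genes to -0.78 under Y15 and -0.59 under PF-04554878, and that of the 47 genes to -1.85 and -1.90. With that scaling 9057 of all genes fell and 386 rose under Y15, and 7556 fell and 949 rose under PF-04554878. Scaling to the median over the tested probes gave 3337 lower and 3897 higher under Y15, and 3354 lower and 5012 higher under PF-04554878, while 41 and 38 of the 47 genes fell. With all probes the 47 genes lay -1.07 and -1.31 from all genes, beside -0.80 and -0.98 with quantile normalization. Size and distance also depended on background, which was not corrected in the values given here. With background correction (neqc, offset 16) the median of the 47 genes was -1.30 under Y15 and -1.50 under PF-04554878. Their distances from all genes were then -1.21 and -1.37. Of the 44 falls under Y15, 10 were lost when some array was left out (CENPH, CENPI, CENPN, CENPQ, CENPW, NSL1, MIS12, ZWINT, BUB3 and ANLN, adjusted p of 0.052 to 0.16), all 10 without Y15 replicate 1. Of the 41 falls under PF-04554878, CENPP, CENPQ and BUB1B were lost in this way (adjusted p of 0.054 to 0.1).

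**Figure D2:**
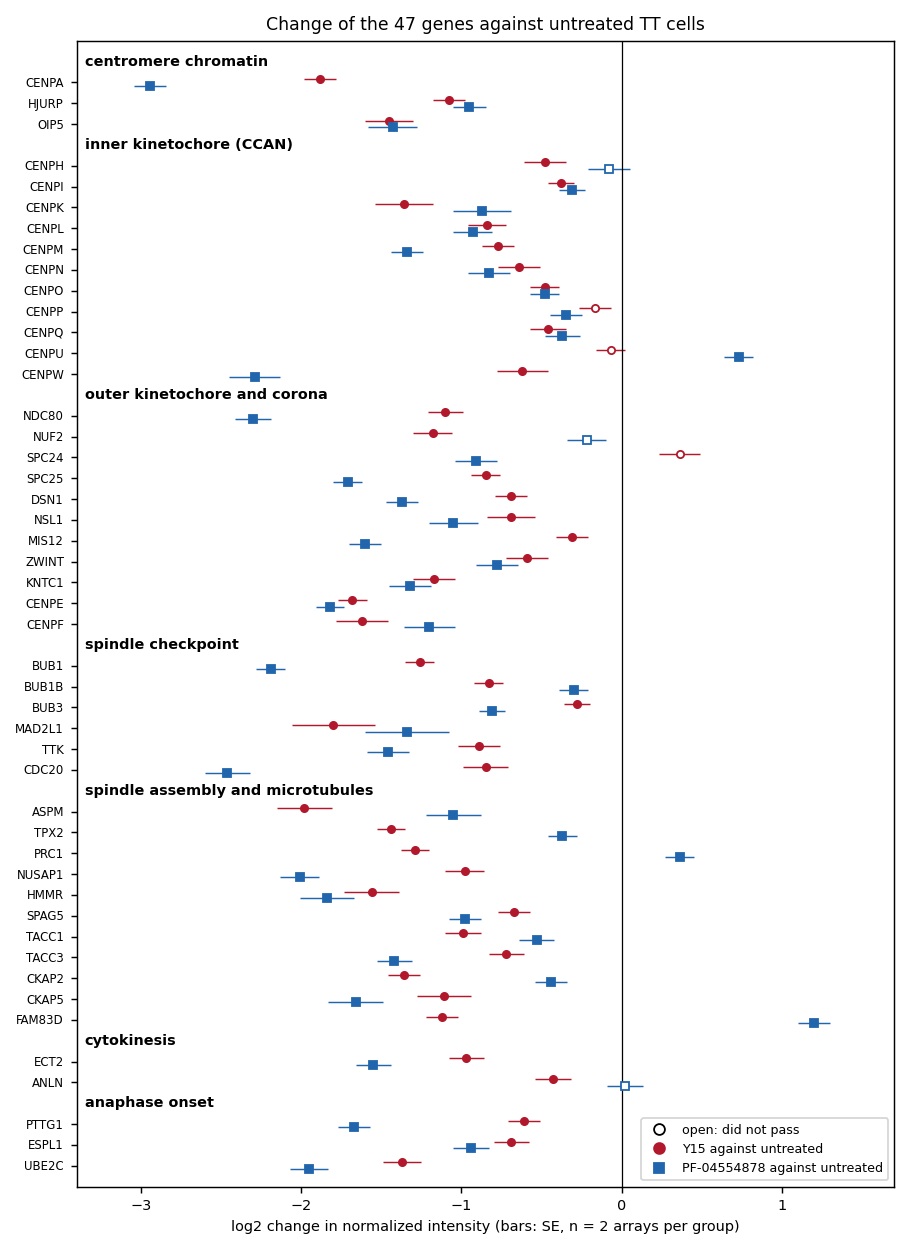
Log2 change against untreated cells (horizontal axis) of each of the 47 genes, grouped by role, for Y15 (red circles) and PF-04554878 (blue squares), with bars of 1 SE and 2 arrays per group. Open symbols did not pass, and nearly all symbols lie left of 0, with FAM83D, CENPU and PRC1 right of it under PF-04554878.

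Genes of the centromeric chromatin had the lowest median of the roles under Y15 (-1.45), and their median under PF-04554878 was -1.43. CENPA, the histone H3 variant that marks the centromere, had log2 levels of 7.93 and 8.06 under Y15, 6.93 and 6.94 under PF-04554878 and 9.94 and 9.81 in untreated cells. The groups did not overlap, and this probe was not detected on either PF-04554878 array, where a dimmer CENPA probe was detected on both. CENPA was 3.68-fold lower under Y15 (log2 change -1.88 ± 0.10 SE, adjusted p 6.6e-06), the third lowest change among all genes. Under PF-04554878 the brighter probe was undetected and at least 7.2-fold lower (adjusted p 5.2e-07), a bound that holds for this probe alone. The dimmer CENPA probe gave -1.35 under Y15 and -0.90 under PF-04554878, so both probes fell under each compound while their sizes differed. HJURP, the chaperone that deposits CENPA, had levels of 8.30 and 8.09 under Y15, 8.28 and 8.38 under PF-04554878 and 9.31 and 9.24 in untreated cells. Every treated array lay below both untreated arrays, with log2 changes of -1.08 under Y15 (adjusted p 0.00014) and -0.95 under PF-04554878 (adjusted p 6.2e-05). OIP5, a subunit of the Mis18 complex that prepares centromeres for new CENPA, had levels of 8.63 and 8.75 under Y15, 8.85 and 8.57 under PF-04554878 and 10.36 and 9.93 in untreated cells. Its log2 change was -1.45 under Y15 and -1.43 under PF-04554878 (SE 0.15, adjusted p 0.00024 and 6.0e-05).

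Promoter sequences are shown for 6 of the genes, 3 that fell under both compounds (CENPA, BUB1 and CDC20) and 3 that departed from that pattern under a compound (PRC1, CENPU and SPC24). They run from 250 bases before to 50 bases after the start site on the strand of the gene, from RefSeq on GRCh38.p14. Capitals mark matches on either strand to the cell cycle genes homology region (CHR, letters TTTGAA or TTCGAA), which the DREAM and MYB-MuvB complexes are known to bind, and to CCAAT, the box of the factor NF-Y.
CENPA, chr2:26785806-26786105, plus strand: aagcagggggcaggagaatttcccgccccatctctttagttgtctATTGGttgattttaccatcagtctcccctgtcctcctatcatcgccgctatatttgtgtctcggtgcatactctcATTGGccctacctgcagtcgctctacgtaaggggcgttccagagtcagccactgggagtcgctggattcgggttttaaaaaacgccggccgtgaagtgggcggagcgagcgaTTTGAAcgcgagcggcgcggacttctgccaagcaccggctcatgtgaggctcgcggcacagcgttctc
BUB1, chr2:110678014-110678313, minus strand: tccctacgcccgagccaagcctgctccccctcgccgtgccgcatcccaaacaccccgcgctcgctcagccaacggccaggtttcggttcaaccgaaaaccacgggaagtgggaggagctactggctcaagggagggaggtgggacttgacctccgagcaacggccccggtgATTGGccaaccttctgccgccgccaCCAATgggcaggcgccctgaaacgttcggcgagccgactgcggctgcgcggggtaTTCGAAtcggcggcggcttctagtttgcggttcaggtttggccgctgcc
CDC20, chr1:43358731-43359030, plus strand: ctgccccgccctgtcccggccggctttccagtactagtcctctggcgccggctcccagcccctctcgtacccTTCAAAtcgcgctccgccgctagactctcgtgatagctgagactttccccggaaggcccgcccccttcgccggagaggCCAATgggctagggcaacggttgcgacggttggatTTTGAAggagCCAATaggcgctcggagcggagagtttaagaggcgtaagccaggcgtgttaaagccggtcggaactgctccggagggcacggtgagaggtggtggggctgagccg
PRC1, chr15:90994486-90994785, minus strand: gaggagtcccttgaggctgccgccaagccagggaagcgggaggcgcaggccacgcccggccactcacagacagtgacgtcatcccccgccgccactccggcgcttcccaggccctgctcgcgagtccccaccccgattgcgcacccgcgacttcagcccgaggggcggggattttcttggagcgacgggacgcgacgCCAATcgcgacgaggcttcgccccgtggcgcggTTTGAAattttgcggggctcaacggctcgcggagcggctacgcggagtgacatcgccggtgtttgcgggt
CENPU, chr4:184734047-184734346, minus strand: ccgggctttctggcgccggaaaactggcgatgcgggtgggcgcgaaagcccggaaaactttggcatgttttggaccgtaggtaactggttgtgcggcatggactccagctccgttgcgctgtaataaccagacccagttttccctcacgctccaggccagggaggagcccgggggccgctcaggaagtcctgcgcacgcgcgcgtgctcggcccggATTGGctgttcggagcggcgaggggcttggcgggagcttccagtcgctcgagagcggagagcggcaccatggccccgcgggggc
SPC24, chr19:11155733-11156032, minus strand: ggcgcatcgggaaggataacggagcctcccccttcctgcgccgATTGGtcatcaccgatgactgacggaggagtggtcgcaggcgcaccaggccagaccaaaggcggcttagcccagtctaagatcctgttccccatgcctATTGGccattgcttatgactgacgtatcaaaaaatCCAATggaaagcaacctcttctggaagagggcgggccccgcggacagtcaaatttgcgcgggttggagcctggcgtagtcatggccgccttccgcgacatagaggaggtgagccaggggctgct

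Counting the start site as +1, the CHR letters began at -18 in CENPA, +2 in BUB1, -178 and -65 in CDC20 and -20 in PRC1. CENPU and SPC24 held no CHR letters in this window, and held CCAAT once and 3 times. Promoters were matched for 37 of the 47 genes. CHR letters stood in 24 of the 37 (64.9%), against 16.4% of all 35116 promoters of this length and 11.2% of the 9141 other tested genes with a promoter in the table. CCAAT stood in 24 (64.9%, against 34.6% of all promoters), and both together in 18 (48.6%, against 6.4%). The first base of a CHR match lay within 50 bases of the start site in 21 of the 37 promoters (56.8%, against 5.0% of all). Letters known as E2F sites (TTTGGCGC or TTTCGCGC, either strand) stood in 3 of the 37 (8.1%, against 1.1%), and 0 of the 37 promoters had overlapping matches of different motifs. OIP5 and NUSAP1, 2 of the 3 with E2F letters, lie head to head on chromosome 15. Their windows share bases, with the same E2F and CCAAT matches counted in both, while their CHR matches lie outside the shared bases.

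The median log2 change of the 24 genes with CHR letters was -1.03 under Y15 and -1.27 under PF-04554878. That of the 13 genes without them was -0.61 under Y15 and -0.91 under PF-04554878. The ranges overlapped, from -1.98 to -0.43 with the letters and from -1.68 to 0.36 without them under Y15. Under PF-04554878 they ran by fitted value from -2.94 to 0.36 with the letters and from -1.82 to 0.73 without them. CENPI, CENPP and CENPQ, without the letters, and CENPO, with them, were dim genes in which a large fall could not be seen. CENPE, which held neither CHR nor CCAAT letters, was among the genes with the larger falls. The 1021 other tested genes with CHR letters had medians of -0.11 under Y15 and -0.15 under PF-04554878. A match is a string of letters and not a measured binding site, and no test was made of these differences.

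**Figure D3:**
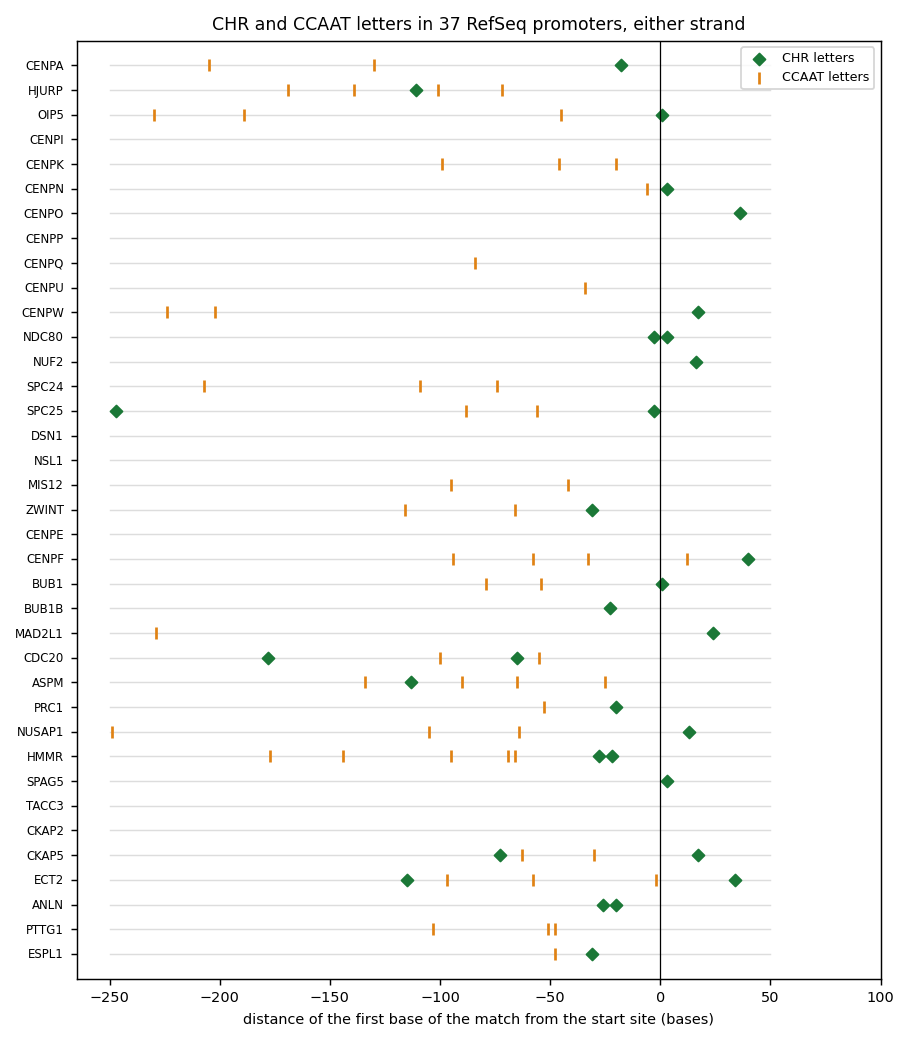
Distance from the start site, in bases, of the first base of each CHR match (green diamonds) and CCAAT match (orange ticks) in the 37 promoters, 1 gene per row. CHR matches lie close to the start site in 21 promoters, while CCAAT matches lie mostly upstream of it.

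The inner kinetochore, the constitutive centromere-associated network that links CENPA nucleosomes to the outer layer, had a median of -0.48 under each compound. This median includes the dim genes CENPI, CENPO, CENPP and CENPQ, in which a large fall could not be seen. By fitted value 9 of the 11 inner kinetochore genes fell under Y15, and under PF-04554878 9 fell and CENPU rose. CENPW, a histone-fold protein that contacts DNA together with CENPT, had levels of 9.21 and 9.61 under Y15, 7.80 and 7.70 under PF-04554878 and 10.23 and 9.84 in untreated cells. It was 4.88-fold lower under PF-04554878 (log2 change -2.29 ± 0.16 SE, adjusted p 5.7e-06) and 1.54-fold lower under Y15 (adjusted p 0.015). CENPK, which acts with CENPH, CENPI and CENPM in 1 subcomplex, had levels of 7.48 and 7.56 under Y15, 8.22 and 7.80 under PF-04554878 and 9.13 and 8.63 in untreated cells. The CENPK groups did not overlap, with log2 changes of -1.36 under Y15 and -0.87 under PF-04554878 (SE 0.18). CENPM of the same subcomplex had levels of 9.57 and 9.50 under Y15, 9.07 and 8.86 under PF-04554878 and 10.33 and 10.29 in untreated cells. It gave -0.77 under Y15 and -1.34 under PF-04554878, while its other 2 probes fell under both compounds as well. CENPH gave -0.48 under Y15, which passed, and -0.08 under PF-04554878, which did not (adjusted p 0.61) but passed at -0.84 with median scaling over all probes (adjusted p 0.0027). CENPL and CENPN, the pair that reads CENPA nucleosomes, fell under both compounds, CENPL with -0.84 under Y15 and -0.93 under PF-04554878 and CENPN with -0.64 and -0.83.

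CENPU, CENPO, CENPP and CENPQ are subunits of 1 further subcomplex, in which CENPU docks the kinase PLK1. CENPU had levels of 7.36 and 7.4 under Y15, 8.10 and 8.25 under PF-04554878 and 7.47 and 7.43 in untreated cells. Both PF-04554878 arrays stood above all others, a rise of 1.65-fold (log2 change 0.73 ± 0.09 SE, adjusted p 1.8e-04), while the change under Y15 was -0.07 (95% interval -0.28 to 0.14). With median scaling over all probes the change of CENPU under PF-04554878 was 0.05 and did not pass, and that under Y15 was -0.69 and passed. CENPO, CENPP, CENPQ and CENPI were dim throughout. CENPO had levels of 6.99 and 6.91 under Y15, 6.95 and 6.96 under PF-04554878 and 7.47 and 7.4 in untreated cells, and both compounds left it undetected. It was at least 1.34-fold lower under Y15 and at least 1.32-fold lower under PF-04554878. CENPQ had levels of 6.71 and 6.81 under Y15, 6.90 and 6.8 under PF-04554878 and 7.34 and 7.10 in untreated cells. It was undetected under both compounds, with falls of at least 1.16-fold and at least 1.14-fold. CENPI had levels of 6.70 on both Y15 arrays, 6.79 and 6.76 under PF-04554878 and 7.08 and 7.07 in untreated cells. It was undetected under both compounds, at least 1.05-fold lower under Y15 and at least 1.04-fold lower under PF-04554878. CENPP had levels of 7.08 and 6.83 under Y15, 6.76 and 6.8 under PF-04554878 and 7.15 and 7.11 in untreated cells. Its change of -0.17 under Y15 did not pass (adjusted p 0.23), and it was at least 1.07-fold lower under PF-04554878. The directions of CENPI, CENPP and CENPQ turned under both compounds with median scaling over the tested probes, where CENPI gave 0.25 under Y15 and 0.26 under PF-04554878. The CENPO falls did not pass there (-0.13 under Y15 and -0.17 under PF-04554878).

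In the outer kinetochore 10 of 11 genes fell under each compound, with medians of -0.85 under Y15 and -1.32 under PF-04554878. The NDC80 complex, the 4-subunit rod that binds microtubules, did not move as a block. NDC80, its microtubule-binding head, had levels of 7.99 and 8.04 under Y15, 6.79 and 6.83 under PF-04554878 and 9.25 and 8.97 in untreated cells. It was undetected under PF-04554878, at least 4.24-fold lower than in untreated cells (adjusted p 1.0e-06), and 2.15-fold lower under Y15 (adjusted p 0.00017). SPC25, of the end that anchors the rod in the kinetochore, had levels of 7.65 and 7.67 under Y15, 6.84 and 6.75 under PF-04554878 and 8.55 and 8.47 in untreated cells. Its fall was 1.80-fold under Y15 (adjusted p 0.00024) and at least 2.79-fold under PF-04554878, where it was undetected. Its partner SPC24 had levels of 9.19 and 8.82 under Y15, 7.81 and 7.66 under PF-04554878 and 8.57 and 8.71 in untreated cells. SPC24 was thus higher on both Y15 arrays than on either untreated array, by 0.36 (95% interval 0.06 to 0.66), which missed the threshold (adjusted p 0.062), and it fell by 0.91 under PF-04554878 (adjusted p 0.00038). Without Y15 replicate 2 the SPC24 value was 0.55 and passed (adjusted p 0.032), and with median scaling over all probes it was -0.79. NUF2, the partner of NDC80, had levels of 7.63 and 7.85 under Y15, 8.65 and 8.76 under PF-04554878 and 9.04 and 8.81 in untreated cells. It fell 2.27-fold under Y15 (adjusted p 0.00018), and its change of -0.22 under PF-04554878 did not pass (adjusted p 0.13). With median scaling over all probes the NUF2 change under PF-04554878 passed as lower, at -1.18 (adjusted p 3.3e-04). Over the tested probes it passed at -0.43 (adjusted p 0.012). A dimmer NUF2 probe passed as higher under PF-04554878 with quantile normalization, at 1.09.

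The MIS12 complex, which joins the inner to the outer layer, fell more under PF-04554878 than under Y15 in its subunits MIS12 and DSN1. MIS12 gave -0.31 under Y15 and -1.60 under PF-04554878, and DSN1 gave -0.69 under Y15 and -1.37 under PF-04554878. NSL1 of the same complex fell under both compounds, with -0.69 under Y15 and -1.05 under PF-04554878 at its brightest probe. ZWINT and KNTC1, which help bring the dynein motor to kinetochores, fell under both compounds. ZWINT gave -0.59 under Y15 and -0.78 under PF-04554878, and KNTC1 gave -1.17 and -1.32. CENPE, the kinesin that carries chromosomes toward the spindle equator, had levels of 7.71 and 7.59 under Y15, 7.48 and 7.52 under PF-04554878 and 9.27 and 9.38 in untreated cells. All 4 treated arrays stood well below both untreated arrays, a fall of 3.19-fold under Y15 (log2 change -1.68 ± 0.09 SE, adjusted p 9.6e-06) and of 3.54-fold under PF-04554878 (-1.82 ± 0.09 SE, adjusted p 1.4e-06). CENPF, a large microtubule-binding protein of the outer corona, fell under both compounds, with -1.62 under Y15 and -1.2 under PF-04554878.

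All 6 spindle checkpoint genes fell under both compounds, with medians of -0.87 under Y15 and -1.40 under PF-04554878. CDC20, the APC/C activator that the checkpoint holds inactive, had levels of 10.59 and 10.16 under Y15, 8.79 and 8.75 under PF-04554878 and 11.29 and 11.16 in untreated cells. The groups formed 3 separate levels, 1.80-fold below untreated cells under Y15 (adjusted p 0.0018) and 5.49-fold below under PF-04554878 (log2 change -2.46 ± 0.14 SE, adjusted p 2.0e-06). BUB1, the kinase that assembles the checkpoint platform on kinetochores, had levels of 8.41 on both Y15 arrays, 7.47 and 7.5 under PF-04554878 and 9.70 and 9.64 in untreated cells. It was 2.39-fold lower under Y15 (adjusted p 3.1e-05) and 4.56-fold lower under PF-04554878 (adjusted p 5.8e-07). MAD2L1, the MAD2 protein that binds CDC20, had levels of 8.69 and 8.81 under Y15, 9.48 and 8.94 under PF-04554878 and 10.97 and 10.13 in untreated cells. The groups of MAD2L1 did not overlap, but its 2 untreated arrays lay 0.84 apart, the widest gap of any of the 47 genes within a group. Its log2 change was -1.80 ± 0.26 SE under Y15 (adjusted p 0.001) and -1.34 ± 0.26 SE under PF-04554878 (adjusted p 0.0017), while a dimmer MAD2L1 probe gave -0.06 and -0.16. TTK, the MPS1 kinase at the top of the pathway, fell under both compounds, with -0.89 under Y15 and -1.46 under PF-04554878. BUB1B, the BUBR1 subunit of the CDC20 inhibitor, fell with -0.83 under Y15 and -0.30 under PF-04554878, and BUB3, its binding partner, with -0.28 and -0.81.

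**Figure D4:**
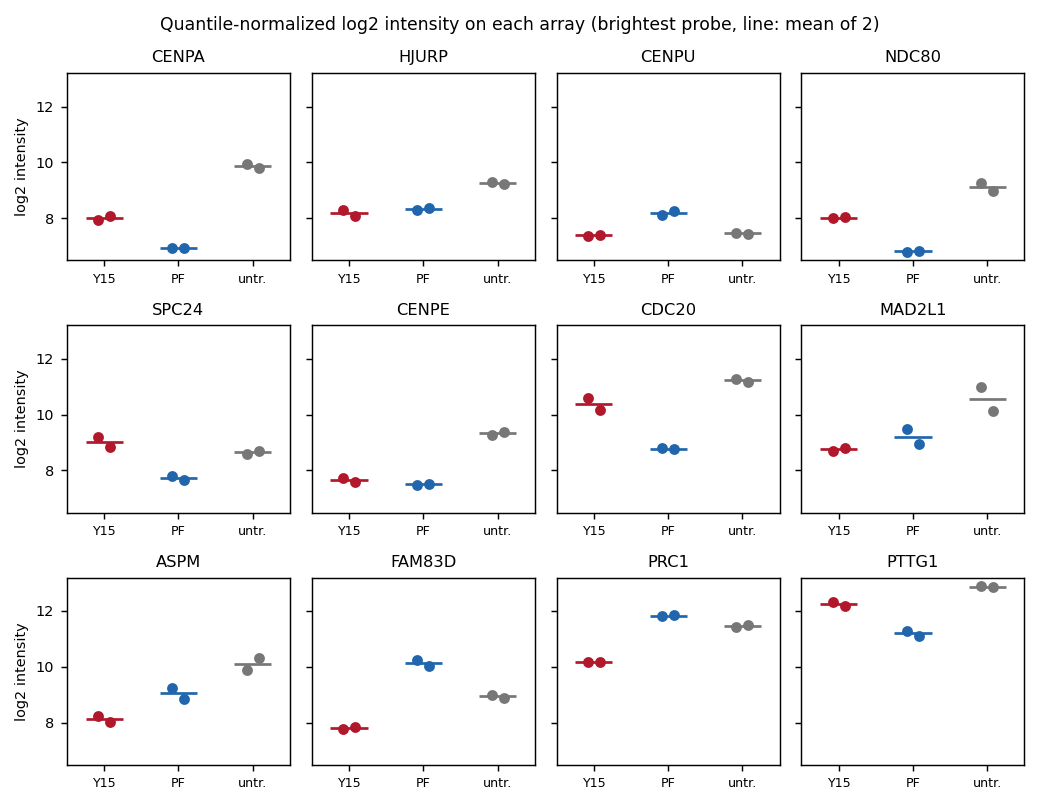
Log2 quantile-normalized intensity (vertical axis) of 12 of the genes on each array, with Y15 in red, PF-04554878 in blue and untreated cells in gray, and a line at the mean of each pair. Each gene is shown by its brightest probe. CENPA, NDC80 and CDC20 are lowest under PF-04554878, while FAM83D, PRC1 and CENPU are highest there and SPC24 is highest under Y15. A dimmer CENPA probe, not drawn, was lowest under Y15.

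Spindle assembly genes fell in all 11 members under Y15, with a median of -1.12. Under PF-04554878 9 fell, PRC1 and FAM83D rose, and the median was -0.98. ASPM, a spindle pole protein, had levels of 8.23 and 8.02 under Y15, 9.23 and 8.86 under PF-04554878 and 9.89 and 10.31 in untreated cells. Its fall under Y15, 3.94-fold (log2 change -1.98 ± 0.17 SE, adjusted p 9.0e-05), was the second lowest change of all 11388 genes, and under PF-04554878 it fell 2.08-fold (adjusted p 0.00064). NUSAP1, which bundles microtubules near chromosomes, had levels of 9.24 and 9.19 under Y15, 8.35 and 8.02 under PF-04554878 and 10.22 and 10.18 in untreated cells. At this probe it was 1.97-fold lower under Y15 (adjusted p 0.00044) and 4.04-fold lower under PF-04554878 (adjusted p 2.4e-06), the reverse order of ASPM. A second NUSAP1 probe fell by similar amounts, with -1.59 under Y15 and -1.76 under PF-04554878. HMMR, an adaptor at spindle poles, fell under both compounds, with -1.56 under Y15 and -1.84 under PF-04554878. TPX2, which activates the kinase AURKA on spindle microtubules, fell under both compounds, with -1.44 under Y15 and -0.37 under PF-04554878.

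FAM83D, which anchors a casein kinase to the spindle, had levels of 7.78 and 7.85 under Y15, 10.23 and 10.04 under PF-04554878 and 8.99 and 8.88 in untreated cells. It was 2.18-fold lower under Y15 (log2 change -1.12 ± 0.10 SE, adjusted p 0.00011) and 2.30-fold higher under PF-04554878 (log2 change 1.2 ± 0.10 SE, adjusted p 1.5e-05). With median scaling over all probes its rise under PF-04554878 was 0.36 (adjusted p 0.047). PRC1, which bundles the antiparallel microtubules of the spindle midzone, had levels of 10.18 and 10.16 under Y15, 11.82 and 11.84 under PF-04554878 and 11.43 and 11.51 in untreated cells. It was 2.45-fold lower under Y15 (adjusted p 2.9e-05) and 1.29-fold higher under PF-04554878 (adjusted p 0.0057), and the rise turned to -0.14 with median scaling over all probes. By their brightest probes, FAM83D and PRC1 were the genes among the 47 that passed in opposite directions under the 2 compounds with quantile normalization. A dimmer NUF2 probe did so too, with -0.66 under Y15, where it was undetected, and 1.09 under PF-04554878.

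Of the remaining spindle genes, TACC3 and its partner CKAP5, a microtubule polymerase, fell under both compounds, TACC3 with -0.72 under Y15 and -1.42 under PF-04554878 and CKAP5 with -1.11 and -1.66. A dimmer CKAP5 probe gave -0.20 under Y15 and -0.17 under PF-04554878, and neither passed. TACC1 fell with -0.99 under Y15 and -0.53 under PF-04554878, CKAP2 with -1.36 and -0.44, and SPAG5, the kinetochore-fiber protein astrin, with -0.67 and -0.98.

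The cytokinesis genes moved unequally under PF-04554878. ECT2, the exchange factor that activates RhoA at the cell equator, had levels of 7.83 and 8.02 under Y15, 7.47 and 7.21 under PF-04554878 and 8.89 and 8.90 in untreated cells, and it fell 1.96-fold under Y15 (adjusted p 0.00042) and 2.93-fold under PF-04554878 (adjusted p 7.3e-06). ANLN, the scaffold of the contractile ring, had levels of 7.84 and 7.80 under Y15, 8.4 and 8.14 under PF-04554878 and 8.24 and 8.26 in untreated cells. It fell by 0.43 under Y15 (adjusted p 0.013), while its PF-04554878 and untreated arrays overlapped (change 0.02, 95% interval -0.23 to 0.26). With median scaling over all probes ANLN under PF-04554878 was -0.89 and passed (adjusted p 2.7e-04).

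Genes of anaphase onset fell under both compounds, with medians of -0.69 under Y15 and -1.67 under PF-04554878. PTTG1, the securin that restrains separase, had levels of 12.33 and 12.19 under Y15, 11.28 and 11.11 under PF-04554878 and 12.89 and 12.85 in untreated cells. It was 1.53-fold lower under Y15 (adjusted p 0.0021) and 3.19-fold lower under PF-04554878 (adjusted p 2.8e-06), in 3 levels that did not overlap. ESPL1, the separase that cleaves cohesin, had levels of 7.44 and 7.49 under Y15, 7.26 and 7.18 under PF-04554878 and 8.03 and 8.29 in untreated cells. Its change was -0.69 under Y15 (adjusted p 0.0016) and -0.94 under PF-04554878 (adjusted p 9.3e-05). UBE2C, the ubiquitin-conjugating enzyme of the APC/C, had levels of 11.02 and 10.99 under Y15, 10.27 and 10.59 under PF-04554878 and 12.33 and 12.43 in untreated cells. It fell 2.59-fold under Y15 (adjusted p 8.8e-05) and 3.86-fold under PF-04554878 (adjusted p 2.7e-06).

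The compounds were compared directly at their shared dose of 10 μM, as 1 pair. Between Y15 and PF-04554878 cells 19 genes (40.4%) were higher under Y15, where 33.0% of all genes tested were, and 13 (27.7%) were lower under Y15, where 27.7% of all genes were. The shares of the 47 genes were thus near those of all genes, and the median difference was 0.19 over the 47 genes and 0.05 over all genes. By fitted value 8 genes were at least 2-fold higher under Y15 (9.13% of all genes) and 3 at least 2-fold lower (6.34% of all genes). Of these 8, CENPA and NDC80 were undetected under PF-04554878 at their brightest probe, with bounds of at least 1.95-fold and at least 1.98-fold, which leaves 6 at 2-fold, and the dimmer CENPA probe gave -0.45. Checkpoint and kinetochore genes led the first set. CDC20 was 3.04-fold higher under Y15, a log2 difference of 1.61 (adjusted p 1.8e-05, 95% interval 1.29 to 1.92). CENPW was 3.16-fold higher (interval 1.30 to 2.03), MIS12 2.45-fold higher (interval 1.07 to 1.51) and SPC24 2.41-fold higher (interval 0.96 to 1.57). NDC80, undetected under PF-04554878, was at least 1.98-fold higher under Y15, and SPC25 at least 1.55-fold. PTTG1, NUSAP1 and BUB1 were 2.09-fold, 2.04-fold and 1.91-fold higher under Y15 at their brightest probes. The second probe of PTTG1 gave a log2 difference of 0.63, which passed, and that of NUSAP1 0.16, which did not.

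Spindle genes had the largest differences in the set that was lower under Y15, though not all went this way. Of the 11 spindle assembly genes 6 (54.5%) were lower and 4 (36.4%) higher under Y15. Of all genes tested 27.7% were lower and 33.0% higher. FAM83D was 5.0-fold lower under Y15, a log2 difference of -2.32 (adjusted p 9.5e-07, 95% interval -2.55 to -2.09). PRC1 was 3.16-fold lower (interval -1.86 to -1.46) and TPX2 2.10-fold lower (interval -1.27 to -0.88). NUF2, ASPM and CKAP2 followed at -0.97, -0.92 and -0.92. Within the NDC80 complex NUF2 was therefore lower under Y15 while NDC80, SPC24 and SPC25 were higher. Within the checkpoint BUB1B was lower (-0.53) while BUB1 and CDC20 were higher, and BUB3 (0.52) and TTK (0.57) were higher with quantile normalization but not with median scaling over all probes.

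For 15 genes the compounds did not differ past the threshold. HJURP gave -0.13 (95% interval -0.37 to 0.10), OIP5 -0.02 (-0.37 to 0.33) and CENPE 0.15 (-0.06 to 0.36), so differences beyond these bounds lie outside the intervals. MAD2L1 had the widest interval, -1.05 to 0.12. CENPI, CENPO and CENPQ were undetected under both compounds and give no fold between them. CENPF, CENPH, CENPK, CKAP5, SPAG5 and TTK passed with all arrays and were lost when some Y15 or PF-04554878 array was left out (adjusted p of 0.051 to 0.27), all but TTK without either Y15 array. Scaling to the median over all probes ended 8 calls between the compounds, those of CENPM (0.35), BUB3 (0.16), TTK (0.41), SPAG5 (0.20), CKAP5 (0.25), UBE2C (0.23), CENPH (-0.34) and CENPK (-0.48), with adjusted p of 0.062 to 0.29. Scaling over the tested probes ended 6 of the same calls, all but those of CENPM and TTK (adjusted p of 0.07 to 0.1). Over all genes the split between the compounds was 2364 higher and 3260 lower with all-probe scaling, and 13 and 11 of the 47 genes.

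**Figure D5:**
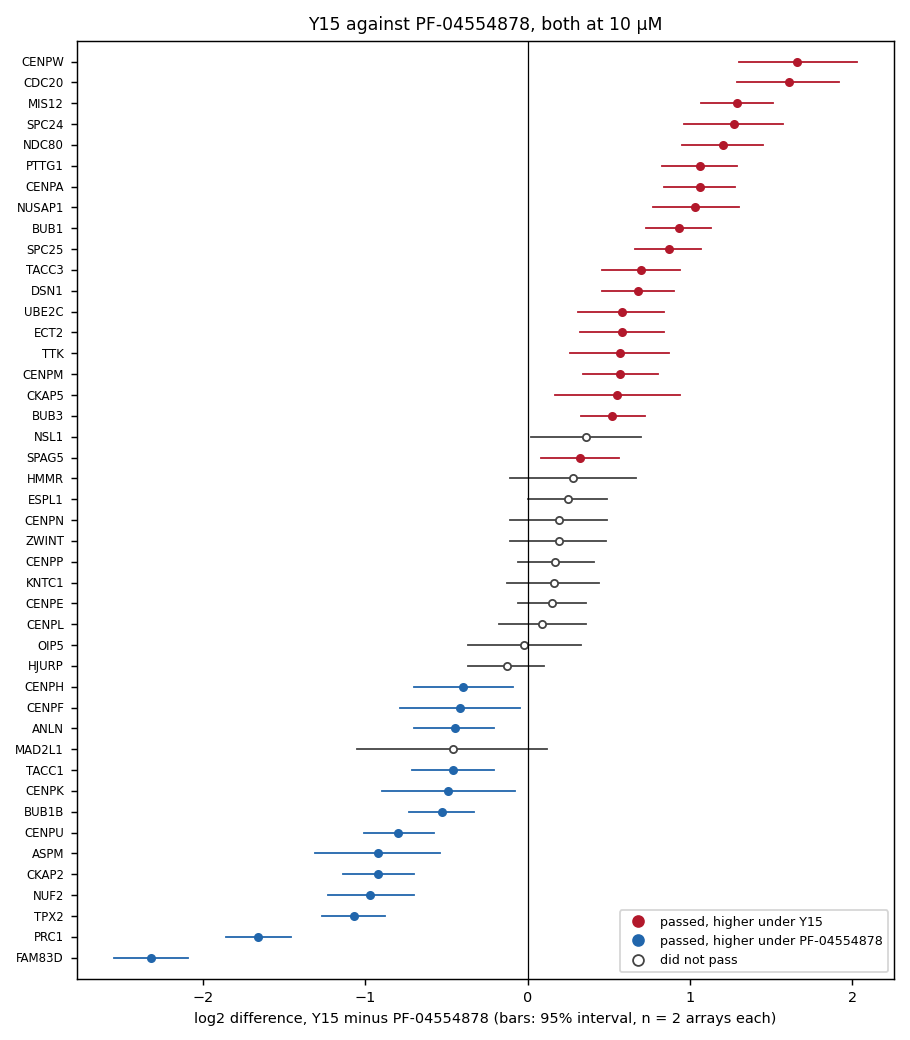
Log2 difference, Y15 minus PF-04554878, with 95% intervals (horizontal axis) for the 44 genes detected under at least 1 of the compounds, ordered by the difference. Red points passed as higher under Y15, from SPAG5 up to CENPW, blue points passed as higher under PF-04554878, from CENPH down to FAM83D, and open points did not pass.

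Several genes had more than 1 detected probe, 17 of the 47 in all, and their probes did not always give the same size. Of 69 detected probes, 59 fell and 0 rose under Y15, and 54 fell and 6 rose under PF-04554878. Of all genes tested, by their brightest probe, 21.5% fell and 16.7% rose under Y15, and 35.1% fell and 27.3% rose under PF-04554878. Probes of a gene lay more than 0.5 apart on the log2 scale for 11 genes under Y15, for 8 under PF-04554878 and for 9 when Y15 was set against PF-04554878. Under PF-04554878 NSL1 passed in opposite directions, with -1.05 at its brightest probe and 0.68, 0.53 and -0.04 at 3 dimmer ones, whose Y15 changes were 0.03, -0.11 and -0.20. A dimmer NUF2 probe gave -0.66 under Y15 and 1.09 under PF-04554878, both past the threshold. The mean of the NUF2 probes gave 0.44 under PF-04554878, which passed as higher (adjusted p 0.0017 by limma). CENPA differed in sign between the compounds, at 1.06 for Y15 minus PF-04554878 by the brighter probe and -0.45 by the dimmer, both past the threshold. The direction of the difference between the compounds is therefore not settled for CENPA. Others kept their direction at different sizes. A dimmer UBE2C probe gave -0.40 under Y15 and -0.71 under PF-04554878, and a dimmer ZWINT probe -0.06 and -0.24. A further probe of SPC25 gave -0.79 under Y15 and -0.86 under PF-04554878. The second probes of NUSAP1, PTTG1, CENPE and CKAP2 gave -1.59, -1.21, -1.12 and -0.74 under Y15, and -1.76, -1.84, -1.46 and -0.20 under PF-04554878. BUB3 and CENPM had 2 further probes each, and 1 of each lay more than 0.5 from the brightest, between the compounds alone. BUB3 gave 0.52 at its brightest probe and -0.07 and 0.41 at the others, and CENPM gave 0.57 at its brightest and 0.14 and -0.01 at the others.

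Other genes of the same machinery were taken from 3 lists with 69 genes, of which 58 were tested. Under Y15 30 of the 58 fell (51.7%, where 21.5% of all genes did) and 4 rose (6.9%, where 16.7% did), with a median of -0.34. Under PF-04554878 36 fell (62.1%, where 35.1% of all genes did) and 8 rose (13.8%, where 27.3% did), with a median of -0.57. Against PF-04554878, Y15 left 25 of them higher (43.1%, where 33.0% of all genes were) and 12 lower (20.7%, where 27.7% were). Among 20 other centromere and kinetochore genes 12 fell and 1 rose under Y15, and 15 fell and 0 rose under PF-04554878. CENPB, which binds centromeric satellite DNA, fell by 2.43 under PF-04554878, and its change under Y15 was -0.18 (adjusted p 0.3). BOD1, a factor for chromosome bi-orientation, rose by 0.56 under Y15 and fell by 2.22 under PF-04554878. SPDL1, the dynein adaptor Spindly, fell under both compounds, with -1.40 under Y15 and -1.81 under PF-04554878, and ZW10, a subunit of the RZZ complex, gave 0.36 under Y15 (adjusted p 0.072) and fell by 1.33 under PF-04554878.

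Among 17 other checkpoint and anaphase genes, which include many APC/C subunits, 6 fell and 2 rose under Y15, and 7 fell and 5 rose under PF-04554878. The shares under PF-04554878, 41.2% lower and 29.4% higher, were near the 35.1% and 27.3% of all genes. Under Y15 35.3% were lower and 11.8% higher, beside 21.5% and 16.7% of all genes. The median of the 17 genes was -0.18 under Y15 and -0.16 under PF-04554878. FBXO5, an inhibitor of the APC/C, fell by 1.24 under Y15 and rose by 0.37 under PF-04554878. TRIP13, the ATPase that remodels MAD2, fell under both compounds, with -0.72 under Y15 and -1.56 under PF-04554878. The APC/C subunit CDC26 rose by 0.32 under Y15 and fell by 1.38 under PF-04554878, and ANAPC4 gave -0.05 under Y15 and fell by 1.01 under PF-04554878. Among 21 other spindle and cytokinesis genes 12 fell and 1 rose under Y15, and 14 fell and 3 rose under PF-04554878. KNSTRN, a partner of SPAG5 at kinetochores, fell under both compounds, with -1.63 under Y15 and -2.38 under PF-04554878. DLGAP5, a protein of kinetochore fibers, fell by 1.24 under Y15 and was undetected under PF-04554878, at least 5.17-fold lower than in untreated cells. CEP55, which acts at the midbody, fell under both compounds, with -1.26 under Y15 and -1.91 under PF-04554878. HAUS2, an augmin subunit, rose by 1.74 under Y15 and by 0.73 under PF-04554878.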

How the data were processed

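Total RNA of TT cells, untreated or collected after treatment with 10 μM Y15 or 10 μM PF-04554878 (2 arrays each), had been labeled with biotin and hybridized to Illumina bead arrays. The methods of the study name a HumanRef-8 chip, while the probe identifiers matched the HumanHT-12 v4 annotation used here. Groups came from the GEO labels. The methods describe duplicate plates and no repeat of the experiment, so p-values measure the spread between these plates alone, which may be technical.

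The authors deposited linear mean bead intensities, exported from GenomeStudio without background subtraction. The deposited file pairs every intensity with a detection p-value, which is small where few negative control beads are as bright. A second deposited table, quantile normalized with lumi, came within 5e-09 of the log2 values recomputed here (median 6.81 per column), so it is uncentered.

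Of 47323 probes listed, 47317 had values. The annotation named 1 gene for 30111 probes, several for 8 and none for 17198, and 30072 took a current symbol by their gene identifier. Intensities were quantile normalized over all probes on the log2 scale, and background was not corrected. Probes with a detection p-value below 0.01 on at least 2 arrays were kept (18876 probes, 14939 with a gene). Each of 11388 genes was represented by its brightest kept probe, 2901 of them having several. Group means were fitted over the 6 arrays with limma 3.58.1 in R 4.3.3 (3 residual and 5.54 prior degrees of freedom), two-sided, with Benjamini-Hochberg adjustment over all genes. The fold minimum of 1.2 followed the study. For a probe undetected on both arrays of a group the fold is a bound, in which each array of that group counts with the lowest signal detected on it or with the probe's own signal, whichever is higher. The number of arrays limits the precision (median SE 0.103 on the log2 scale).

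The genes, their roles and the lists were chosen with earlier results of these data known. Values on every array are given for up to 3 genes of each role with the largest change, for those that rose or passed in opposite directions, and for those undetected in a group. Probes more than 0.5 apart are named with each value, and of each other list up to 4 genes with the largest change. The fit was tested on simulated data for the comparison of Y15 with untreated cells (11388 genes). It recovered 57 of 67 genes set to change 1.5-fold, 67 of 67 at 2-fold and 66 of 66 at 4-fold, and called 11 of 11188 unchanged genes. Alternatives were other scalings and background corrections, the deposited values, other detection filters and probe rules, other variance priors, fold minimums, the replicate block and leaving out each array. Figures were drawn with matplotlib 3.10.9 in Python 3.11.15.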

Additional observations from a re-analysis of the deposited data

How the results depend on the processing

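Over 20 alternatives 2799 values of single genes were recomputed. Of these, 2626 kept their call or lack of one, 143 lost the call and 17 gained it. A further 13 turned direction and were called before or after. The 2626 include 13 uncalled values that turned direction and stayed uncalled. Some alternatives could change little, such as the deposited values, within 5e-09 of those used, and dropping the fold minimum. Leaving out an array of the group not compared left log2 changes as they were. Requiring 2-fold left 19 of the 47 genes lower under Y15, 24 lower and 1 higher under PF-04554878, 3 lower and 8 higher under Y15 than under PF-04554878 (6 with undetected groups at their bound), and 8 (Y15) and 19 (PF-04554878) of the other pathway genes lower. Median scaling over all probes, which lowers most genes, left 1 gene higher under PF-04554878 (FAM83D) and 55 other pathway genes lower under Y15. It turned SPC24 under Y15 to -0.79, and PRC1 and ANLN under PF-04554878 to -0.14 and -0.89, and it ended 8 calls between the compounds. Median scaling over the tested probes made 1 gene rise under Y15 (CENPP). It turned CENPI, CENPP and CENPQ to 0.25, 0.36 and 0.07 under Y15 and to 0.26, 0.19 and 0.09 under PF-04554878, all dim genes. Keeping only probes detected on all 6 arrays left 40 of the 47 genes and 46 other pathway genes, 19 of these 46 lower under Y15, and put CENPA at -0.45 between Y15 and PF-04554878 because its dimmer probe then stood for it. The mean of all probes turned NUF2 to 0.44 and NSL1 to 0.03 under PF-04554878, and NSL1 to -0.27 between Y15 and PF-04554878. The cause was not tested for the turns of scaling. With 1 array left out, 34 to 44 genes were lower and 0 to 1 higher under Y15 (SPC24 without Y15 replicate 2), 39 to 41 were lower and 3 to 3 higher under PF-04554878, 10 to 14 were lower and 17 to 20 higher under Y15 than under PF-04554878, and 21 to 31 (Y15) and 33 to 36 (PF-04554878) other pathway genes were lower. Where 1 array of a group was left, it was assumed to vary like the other groups. Replicate numbers did not pair the arrays, since deviations of same-numbered arrays correlated at -0.26 between Y15 and untreated cells, 0.20 between PF-04554878 and untreated cells and -0.10 between the compounds. With the replicate block 44 genes were lower and 0 higher under Y15, 41 lower and 3 higher under PF-04554878, and 12 lower and 20 higher under Y15 than under PF-04554878, with 30 and 36 other pathway genes lower. Dim probes limit CENPI, CENPO, CENPP and CENPQ most, as their levels lay near the lowest signal detected.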
